A study of Xenopus laevis with 2 samples.

Results

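MyoD, Myf5, myogenin and MRF4 are basic helix-loop-helix (bHLH) transcription factors of the skeletal muscle lineage. They bind E-box motifs as dimers with the widely expressed E proteins, and Id proteins, which lack the DNA-binding basic region, compete for those partners. MyoD and Myf5 commit mesodermal cells to the muscle fate, and myogenin acts later, when myoblasts differentiate. In frog embryos *myod* and *myf5* are early markers of the paraxial mesoderm, and both are normally low in isolated ectoderm.

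The myogenic bHLH probes were taken from an Agilent *Xenopus laevis* array by gene name LOC397758 or MGC52596 or by a description naming MyoD, Myf5, myogenin, MRF4 or a myogenic factor. This found 4 of 21495 gene probes. These were LOC397758 (RefSeq symbol myod1.L), described as a MyoD homologue, MGC52596, described as similar to MyoD and not matched to a RefSeq symbol, myogU2-A (myog.S) and myogU1-A (myog.L). A further 1 probe, XMyf-5 (myf5.L), carried the factor's name as its gene name but only a clone name as its description, and it was kept beside the 4. No probe was named for MRF4. The RefSeq table lists 2 *myod1* genes, and the probe sequences were not used here, so whether the 2 *myod* probes tell these copies apart is not known. The *myod* names in the rule were selected on their ratios on the active EBF3 array, so the values below are a description and were not tested.

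Animal caps, the prospective ectoderm, were dissected at stage 9 from *Xenopus* embryos injected with mRNA. Noggin mRNA, which the study added to neuralize the caps of its main screen, was left out for these arrays. The active EBF3 caps carried 1 ng of hGR-Xebf3, the transcription factor EBF3 joined to the human glucocorticoid receptor's hormone-binding part, and were kept in 30 µM dexamethasone (DEX) for 4.5 h. The hGR caps carried 0.4 ng of the receptor domain alone and received the same DEX dose for the same time. Each was hybridised in Cy3 on 1 array, against untreated hGR-Xebf3 caps in Cy5. The active EBF3 caps therefore differed from their reference in DEX, whereas the hGR caps differed from theirs in DEX and in the injected mRNA. Each comparison rested on a single array and 1 biological replicate, without dyes exchanged, so array and condition cannot be told apart and no test was run. Errors given below are those of the scanner software for a single spot and hold no replicate spread.

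Signals well above background were found for 49.4% to 57.8% of gene probes, depending on the channel. The median log2 ratio of treated over untreated caps was -0.09 for active EBF3 and -0.06 for hGR, and -0.02 and -0.60 without dye normalization. None of the 5 myogenic probes was saturated, non-uniform or a population outlier in any of the 4 channels. Of 14 epidermal marker probes, 8 were well above background in all channels.

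Both *myod* probes had far higher signals in active EBF3 caps than in untreated caps. The LOC397758 probe had a processed signal of 68880.1 ± 1101 (spot error) in active EBF3 caps, against 645 ± 23.5 in the untreated caps on the same array. On the other array it had 437 ± 24.4 in hGR caps, against 246 ± 12.3 in untreated caps. It was well above background in all 4 channels, and the active EBF3 caps stood far above the other 3. The log2 ratio was 6.74 (spot error 0.54) for active EBF3, or 107-fold higher, and ranked 1 among the usable gene probes by processed ratio. Many probes with dim untreated caps have only a lower bound to their fold, so such ranks hold for the processed values alone. In bulk caps, more cells with *myod* RNA and more *myod* RNA per cell cannot be told apart.

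The second *myod* probe, MGC52596, had 157246 ± 1999 in active EBF3 caps, against 2893 ± 46.3 in untreated caps on that array. On the hGR array its signal was 399 ± 26.6 in hGR caps, against 273 ± 13.4 in untreated caps. Again all 4 channels were well above background, and the active EBF3 caps were the high sample. The log2 ratio was 5.76 (spot error 0.47), 54.4-fold higher in active EBF3 caps, and ranked 2. Both *myod* probes thus passed 2-fold on the active EBF3 array, where 2.11% of 21283 usable gene probes were higher and 2.03% lower. Since the rule drew on these ratios, nothing is read from that comparison.

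The probe for *myf5*, the other early commitment factor, was also higher. XMyf-5 had a signal of 3588 ± 71.8 in active EBF3 caps, against 479 ± 19.6 in untreated caps on the same array. The log2 ratio was 2.90 (spot error 0.28), 7.49-fold higher, and ranked 61. On the hGR array neither channel was well above background, with 67.4 ± 14.6 in hGR caps and 71.9 ± 12.1 in untreated caps, so no fold is given there.

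The myogenin probes did not share this pattern. The myogU2-A probe had 1732 ± 51.5 in active EBF3 caps, against 1309 ± 33.3 in their untreated caps, and 1607 ± 39.3 in hGR caps, against 1246 ± 21.0 in theirs. It was thus well above background everywhere, untreated caps included. What the probe bound was not tested, so these signals are not read as myogenin expression in the caps. By processed signal the treated sample was a little higher on each array. On the hGR array this turned without dye normalization, so no direction is read there. The log2 ratios were 0.40 (spot error 0.18) for active EBF3 and 0.37 (spot error 0.17) for hGR, so the ratios of 1.32-fold and 1.29-fold lay within the spot error of each other. The myogU1-A probe was not well above background in any channel, with 87.8 ± 11.9 in active EBF3 caps, against 103 ± 15.9 in untreated caps, and 67.6 ± 11.8 in hGR caps, against 82.6 ± 10.2 in untreated caps. A change in this copy of myogenin was therefore not detectable on these arrays.

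**Figure D1:**
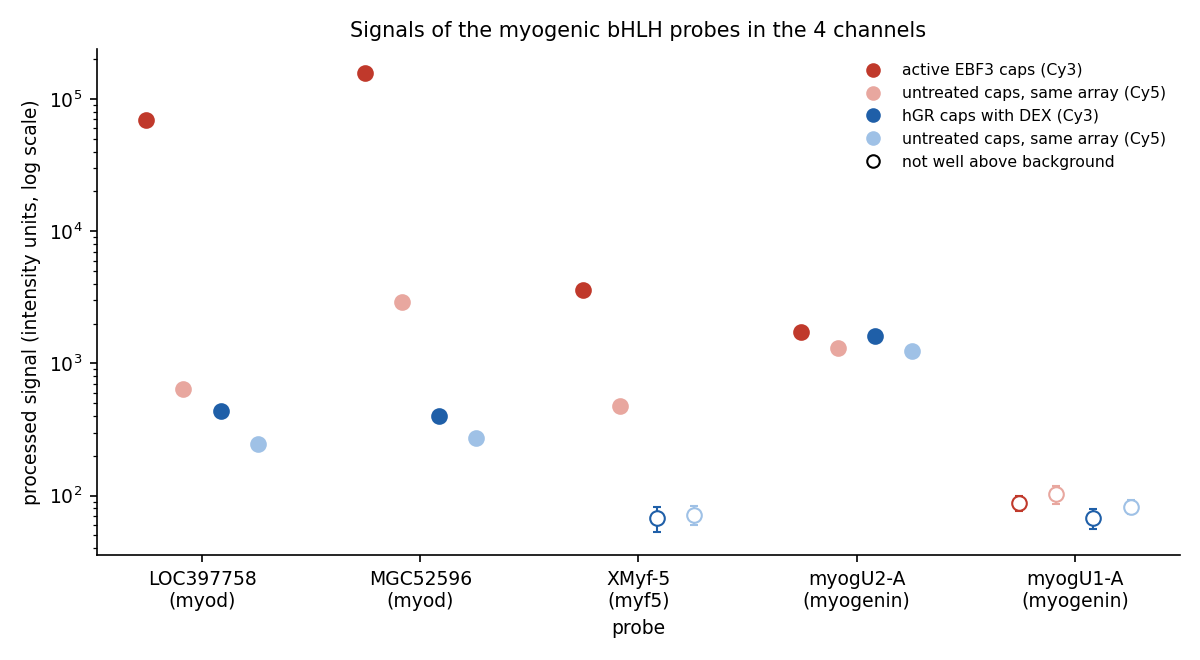
Processed signal (intensity units, log axis) of the 5 myogenic bHLH probes in active EBF3 caps and their untreated caps, then in hGR caps and theirs; points are single spots, bars are spot errors of the software, and open points are not well above background. For LOC397758, MGC52596 and XMyf-5 the active EBF3 caps lie above the other 3 channels, while the 4 myogU2-A signals lie between 1246 and 1732.

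In caps with the receptor domain alone, none of the 5 passed 2-fold, where 1.02% of 21343 usable gene probes were higher and 4.08% lower. LOC397758 had a log2 ratio of 0.83 (spot error 0.30), 1.78-fold higher in hGR caps, and MGC52596 had 0.55 (spot error 0.30), 1.46-fold higher. These small ratios depended on correcting the offset of the hGR array, whose median log2 ratio was -0.60 without dye normalization. Uncorrected background-subtracted Cy3 over Cy5 signals gave 1.15-fold higher for LOC397758, 1.06-fold lower for MGC52596 and 1.38-fold lower for myogU2-A in hGR caps. Centred on the array median, they gave log2 ratios of 0.81 for LOC397758, 0.52 for MGC52596 and 0.14 for myogU2-A. In active EBF3 caps the uncorrected signals gave 92.9-fold higher for LOC397758 and 47.1-fold higher for MGC52596.

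The difference of the log2 ratios, active EBF3 minus hGR, was 5.91 for LOC397758, 5.22 for MGC52596 and 0.04 for myogU2-A. It passed 2-fold upwards for both *myod* probes, as it did for 5.12% of the 21219 probes usable on both arrays. Set against each other directly, the Cy3 signals of active EBF3 caps were 158-fold those of hGR caps for LOC397758 and 394-fold for MGC52596, where the median over all probes was 1.22-fold. XMyf-5 was at least 14.3-fold higher in active EBF3 caps than in hGR caps, as its Cy3 signal in hGR caps was not well above background.

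**Figure D2:**
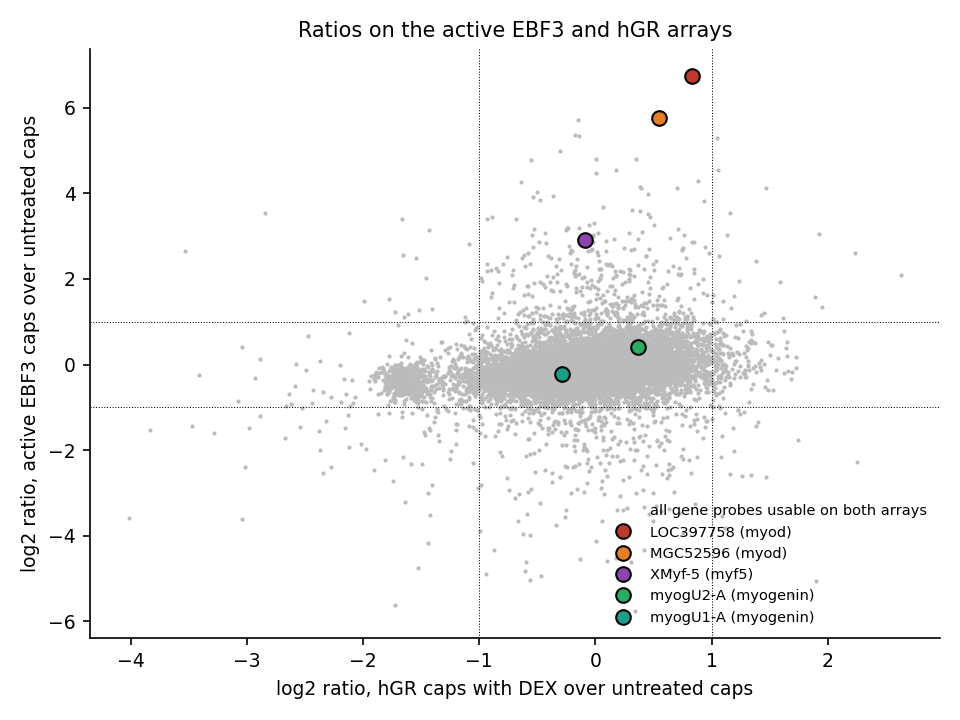
Log2 ratio on the active EBF3 array (vertical) against that on the hGR array (horizontal), grey for all gene probes usable on both arrays and coloured for the myogenic bHLH probes; dotted lines mark 2-fold. LOC397758 (6.74) and MGC52596 (5.76) lie at the top, XMyf-5 at 2.90 and both myogenin probes near the centre; XMyf-5 on the hGR array and myogU1-A on both were not well above background.

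The untreated caps themselves gave unlike *myod* signals on the 2 arrays. Their Cy5 signal for MGC52596 was 2893 on the active EBF3 array against 273 on the hGR array, a ratio of 10.6-fold. For LOC397758 it was 645 beside the active EBF3 caps and 246 beside the hGR caps, or 2.63-fold. XMyf-5 had a Cy5 signal of 479 beside the active EBF3 caps and 71.9 beside the hGR caps, the second not well above background, which made it at least 2.84-fold. For myogU2-A the Cy5 signals of 1309 and 1246 were close, at 1.05-fold. The 3 probes that were high in the Cy3 channel of the active EBF3 array were thus also higher in its Cy5 channel.

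The median Cy5 difference over all probes was 0.25 on the log2 scale, or 1.19-fold, and its SD was 0.17 over the 11243 probes well above background on both arrays. After this median was subtracted, the *myod* Cy5 differences were 3.15 for MGC52596 and 1.14 for LOC397758. Of the 21219 probes, 0.25% were at least 2-fold higher by this measure. Restricted to the 11358 probes with a Cy5 signal well above background on the active EBF3 array, the share was 0.352%. By measured Cy5 ratio among these, MGC52596 ranked 1, XMyf-5 ranked 2 and LOC397758 ranked 26. The filter asked nothing of the hGR array, where the Cy5 signal of XMyf-5 was not well above background. Its rank therefore rests on a dim value, and its bound was 2.84-fold. Before dye normalization the background-subtracted Cy5 signals of the untreated caps were 226 and 30.4 for MGC52596, and 50.4 and 27.4 for LOC397758, on the active EBF3 and hGR arrays in that order.

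Cy5 differences also varied with the ratio across other probes. The median Cy5 difference was 0.80 for the 7 other probes with an active EBF3 log2 ratio of 4 or more and both channels well above background, with a range of 0.52 to 2.47. It was 0.34 for the 20 probes with a ratio from 3 to 4, 0.24 for the 10108 probes within 2-fold and 0.23 for the 253 probes that were at least 2-fold lower. The highest of the 7 was MGC82572, the *neurod* probe the study lists, whose Cy5 signal on the hGR array was not well above background. The filter used the active EBF3 array's Cy5 signal, which is part of the Cy5 difference, so it shapes this trend. It left out other probes named below with a ratio of 4 or more, whose Cy5 signals were dim. Their Cy5 differences ran from -0.36 for Stripy to 1.40 for LOC495280, with 0.14 for LOC398028 and 0.33 for hhex-A. Beyond the median shift, the Cy5 excess over the hGR array's Cy5 signal was 0.511% of the Cy3 signal for LOC397758 and 1.63% for MGC52596. For XMyf-5 it was 11.0%, set against a Cy5 signal on the hGR array that was not well above background. What set the Cy5 signals apart was not tested.

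**Figure D3:**
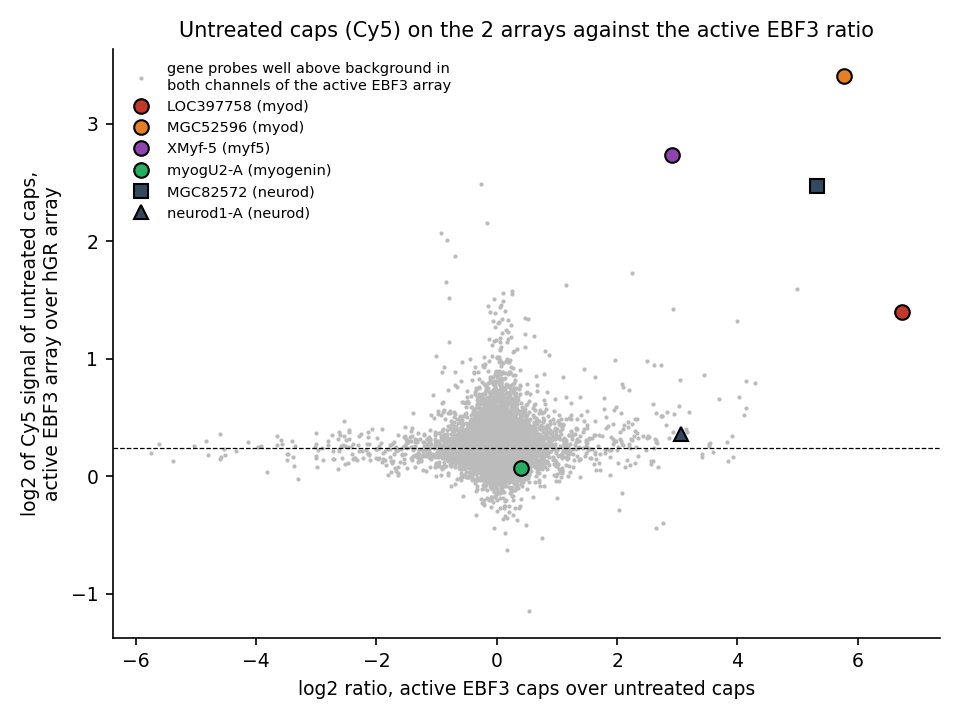
Log2 of the untreated caps' Cy5 signal on the active EBF3 array over that on the hGR array (vertical) against the active EBF3 log2 ratio (horizontal), for probes with both signals well above background on the active EBF3 array; the dashed line is the median of these probes. MGC52596 (3.40), XMyf-5 (2.74), the listed *neurod* probe MGC82572 (2.47) and LOC397758 (1.39) lie above it, while myogU2-A (0.07) and neurod1-A (0.36) lie near it. The Cy5 signals of XMyf-5 and MGC82572 on the hGR array were not well above background. The choice of probes used the active EBF3 array's Cy5 signal, which is also part of the vertical axis.

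The choice of untreated caps changed the size of the *myod* ratios, and it turned their order. With the Cy5 signal of the hGR array in place of that on the same array, each channel's median shift removed, active EBF3 caps were 507-fold higher for MGC52596 and 247-fold higher for LOC397758. With the Cy5 signal of the same array LOC397758 had the larger ratio. For myogU2-A the ratio was 1.22-fold. The direction was the same with both references for these 3 probes.

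Some regulators around the myogenic factors were higher in active EBF3 caps. Of 15 probes for signals, partners and upstream factors of myogenesis, 8 had both signals well above background on the active EBF3 array, where 3 were higher past 2-fold, 0 were lower and 12 lay within, beside 2.11% higher and 2.03% lower over all gene probes. None of 14 usable probes passed 2-fold on the hGR array, where 1.02% of all gene probes were higher and 4.08% lower. FGF-8b (fgf8.L), a growth factor that sustains *myod* expression in frog mesoderm, had 10575 in active EBF3 caps, against 1898 in untreated caps. It was 5.57-fold higher in active EBF3 caps and 1.55-fold lower in hGR caps. LOC496378 (pax7.L), a paired-box factor of muscle progenitors and also of the neural plate border, was 3.81-fold higher in active EBF3 caps and 1.05-fold lower in hGR caps. LOC398065, for the mesodermal T-box factor eomesodermin, was 2.28-fold higher in active EBF3 caps and 1.52-fold higher in hGR caps.

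The 12 other probes of this list lay within 2-fold in active EBF3 caps. The mef2a-prov probe, for a MEF2 factor that works with the myogenic bHLH factors, was 1.78-fold lower, and MGC52608, for the E protein E12, was 1.18-fold lower. The mesodermal T-box gene probe tbx6-A was 1.54-fold higher and that of the paraxial mesoderm bHLH gene Mespo 1.13-fold lower. The brachyury probes Xbra and bra3-A-prov were not well above background there. The median log2 ratio of the list was -0.17, against -0.09 over all gene probes, and 0.012 on the hGR array, against -0.06. The list median was 0.63 over the 8 probes with both signals well above background there.

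Of 3 probes for the Id inhibitors of bHLH dimerisation, 1 passed 2-fold downwards in active EBF3 caps and 2 lay within, beside 2.03% lower over all gene probes. The idb4-prov probe had 158 in active EBF3 caps, not well above background, against 415 in untreated caps, which made it at least 2.00-fold lower; it was 1.80-fold higher in hGR caps, with 538 against 298 in untreated caps. MGC52572, described as similar to Id3, was 1.72-fold lower in active EBF3 caps and 1.38-fold higher in hGR caps. The id2 probe was not well above background.

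Of 24 probes for contractile and other muscle proteins, 2 were higher past 2-fold in active EBF3 caps, 1 was lower and 21 lay within, beside 2.11% higher and 2.03% lower over all gene probes. In 12 of them neither signal was well above background. The mlc1av-A probe (myl4.L), for a myosin light chain, had 2018 in active EBF3 caps, against 262 in untreated caps, and 284 in hGR caps, against 182 in untreated caps. It was 7.71-fold higher in active EBF3 caps and 1.56-fold higher in hGR caps. The tnnc1 probe, described as cardiac troponin C, had 335 in active EBF3 caps and 93.0 in untreated caps, the second not well above background. It was at least 1.64-fold higher, so its place past 2-fold rests on a dim value. Another probe described as cardiac troponin C, MGC64256, had 410 in active EBF3 caps, against 336 in untreated caps. Both signals were well above background, and it was 1.22-fold higher. MGC64405, for slow troponin I, was at least 2.22-fold lower in active EBF3 caps, and in hGR caps the bound was 1.73-fold lower.

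Most other contractile genes lay within 2-fold. Over the 9 muscle probes with both signals well above background on the active EBF3 array, the median log2 ratio was 0.24, and ratios ran from -0.71 for tmod3-prov, a tropomodulin, to 2.95 for mlc1av-A. Of these 9, tmod3-prov and the tropomyosin probes TPM3 and Tm7 had signals from 11839 to 32725 in all 4 channels, untreated caps included. They are therefore not read as particular to muscle. The acta1-prov probe, for skeletal alpha-actin, had 350 in active EBF3 caps, against 297 in untreated caps, and was 1.18-fold higher, while it was 1.09-fold higher in hGR caps. The ckm-prov probe, for muscle creatine kinase, was 1.19-fold higher in active EBF3 caps. The desmin probe des-B-prov had neither signal well above background. Over all 24 probes the median was 0.04 on the active EBF3 array, against -0.09 over all gene probes. On the hGR array 0 were higher and 2 lower, beside 1.02% and 4.08% over all gene probes, with a median of -0.19, against -0.06.

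A search of the descriptions after the values were seen added 13 muscle probes. Of these, 1 was higher past 2-fold by processed ratio in active EBF3 caps, where 2.11% of all gene probes were, and 12 lay within. This was MGC53823, described as similar to alpha-actin, whose untreated caps were not well above background, so that it was at least 1.65-fold higher. All 3 myosin heavy chain probes were among the 10 not well above background. On the hGR array 4 of the 13 were lower past 2-fold, beside 4.08% of all gene probes, of which 3 had neither signal well above background.

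**Figure D4:**
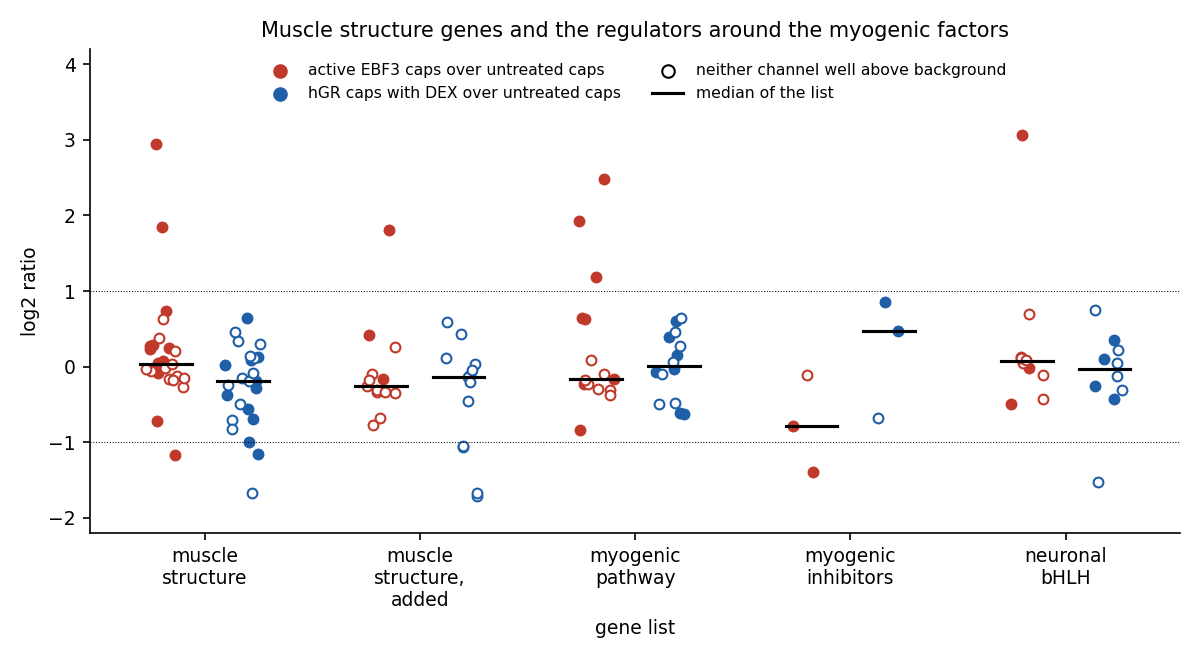
Log2 ratio of treated over untreated caps for each probe of 5 gene lists, active EBF3 array (red) left of hGR array (blue); open points had neither signal well above background, bars are list medians and dotted lines mark 2-fold. In active EBF3 caps 3 of 15 pathway, 2 of 24 muscle structure, 1 of 13 added muscle and 1 of 10 neuronal bHLH probes lie above the upper line. Below the lower line lie 1 muscle structure probe and 1 of 3 inhibitor probes. Over all gene probes 2.11% were higher and 2.03% lower. For tnnc1, MGC53823, MGC64405 and idb4-prov 1 of the 2 signals was not well above background. Most muscle structure points lie within both lines.

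Neurogenic bHLH genes, which belong to the same family and also bind E-boxes, were set beside the myogenic ones. Of 10 probes for neuronal bHLH factors, 1 was higher past 2-fold in active EBF3 caps, beside 2.11% of all gene probes, and 9 lay within, of which 7 had neither signal well above background. The neurod1-A probe was 8.36-fold higher, with 2798 in active EBF3 caps, against 335 in untreated caps. Another nscl-1 probe among the 10, XHEN1 (nhlh1.S), had no signal well above background on either array. The *neurod* and nscl-1 probes that the study lists were not among the 10. They stand for genes that the study chose among those strongly upregulated in its main screen, which used other samples, from caps given Noggin mRNA. The study also reported that all its chosen genes were still upregulated without Noggin mRNA, on the arrays used here. Their ratios below are therefore no separate check. MGC82572, the listed *neurod* probe, was 40.2-fold higher, and LOC495280, the listed nscl-1 probe, at least 23.3-fold higher. By ratio MGC82572 therefore lay below both *myod* probes and above XMyf-5.

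Some markers of other cell types passed 2-fold on the same array, where 2.11% of all gene probes were higher and 2.03% lower. In active EBF3 caps 3 of 14 epidermal probes were lower past 2-fold and 0 higher, and of 11 neural probes 3 were higher and 1 lower. Of 12 heart probes 1 was higher and 0 lower, and of 8 endoderm probes 0 passed 2-fold. In hGR caps, with 1.02% of all gene probes higher and 4.08% lower, 0 epidermal and 0 endoderm probes passed 2-fold. There 1 neural probe was higher with neither signal well above background, and of the heart probes 2 were higher and 1 lower. Of these heart probes only hand2-A, 2.14-fold higher, had a signal well above background. Their part in the *myod* ratios was not tested.

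The probes whose pair of ratios lay nearest to *myod* were the 5 annotated probes closest to the midpoint of LOC397758 and MGC52596. Distance was Euclidean over the 2 log2 ratios. Probes had to be well above background in Cy3 of the active EBF3 array, where these were high, and uniform on both arrays. Nearest were LOC398028 (tal1.S), a bHLH factor of blood (distance 1.00), hhex-A, a homeobox factor (1.24), and the nuclear receptor Nr2f2 (1.48). The others were MGC68611 (homeobox D10) and BC043838 (*greb1* in the study), at 1.61 each. Nr2f2, MGC68611 and BC043838 stand for genes that the study lists as candidate targets. Of the 5, MGC68611 was 31.7-fold higher in active EBF3 caps. The other 4 had untreated caps not well above background and were at least 22.3-fold, 20.8-fold, 20.8-fold and 11.7-fold higher. None of the 5 had a signal well above background in hGR caps or their untreated caps, so all these distances rest on dim signals and their order is not established. Probes described only as a clone, a hypothetical protein or a numbered MGC protein did not count as annotated, unless a similarity was named. This left out MGC82572, the listed *neurod* probe, with log2 ratios of 5.33 for active EBF3 and -0.14 for hGR. It also left out LOC495280, for nscl-1, with 4.54 and 0.18.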

How the data were processed

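The samples were 2 two-colour Agilent arrays. The authors' intensity values were, per the file headers, extracted with Feature Extraction 8.1.1.1 from 10 µm scans, with spatial detrending as background, LOWESS dye normalization within each array (smoothing factor 0.25) and surrogate values where a channel was not significantly above background. The study's methods name another software version and scan resolution. The log10 ratio deposited for each spot sets Cy5 over Cy3, with 0 for pairs of surrogates. A p-value deposited beside it covers spot error only and was not used. The authors' series table holds the log10 ratio with its sign turned.

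The log2 ratio of processed Cy3 over Cy5 intensity was used, without controls and non-uniform spots, at a 2-fold threshold after the study's methods. With 1 array per comparison there was no test, and the number of arrays limits the precision. Well above background was the flag of the software, which requires a signal of 2.6 background SDs. Where 1 channel lacked it, the brighter channel was set, after Aquantile normalization in limma 3.58.1 (R 4.3.3), against the higher of the dim value and the lowest signal well above background in that channel, and written as at least N-fold. Dyes were not swapped, so dye bias can enter these bounds. The ratio script was tested on simulated data.

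Probes were named from the array's annotation, and 2279 matched a RefSeq symbol (Xenopus_laevis_v10.1, names only). Named probes were all myogenic bHLH probes, and those list members that passed 2-fold in active EBF3 caps with the brighter channel well above background. The highest and lowest muscle probes, neuronal bHLH probes past 2-fold and the 5 annotated probes nearest to *myod* were also named. Other list members were named after their values were seen. Members and lists were chosen with earlier results of these data known. After the values were seen, 6 false pattern matches were dropped from the lists and 13 muscle probes were added as a list of their own. A further 2 list probes are not reported here and were left out of the list counts. Alternatives were normexp background correction (offset 50) with loess, median centring of background-subtracted signals, the deposited log ratio, the series table, filters on dim probes, non-uniform spots kept and a 1.5-fold threshold. The hGR array's Cy5 signal as reference was chosen after seeing the data.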

Additional observations from a re-analysis of the deposited data

Results flagged for a closer look

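In 3 flagged regulators, which were not the only ones, the ratios ran in opposite directions on the 2 arrays. Each direction rested on 1 array, and the difference was not tested for any of them. The difference of log2 ratios, active EBF3 minus hGR, was 3.11 for FGF-8b, which was higher in active EBF3 caps and lower in hGR caps. It was 3.49 for neurod1-A, in the same directions, but its Cy3 signal in hGR caps was not well above background, so the value rests on a dim spot. For idb4-prov the difference was -2.24, lower in active EBF3 caps, where its Cy3 signal was not well above background, and higher in hGR caps. That value too rests on a dim spot. By processed ratio, directions were also opposite for Brat, a T-box probe, mef2a-prov and MGC52572, with all 4 signals well above background. Their log2 ratios in hGR caps were small, at -0.61, 0.39 and 0.47 in that order. Like those of the 3 flagged probes, these hGR ratios were not rechecked without dye normalization, so no direction is read from them. LOC496378 had -0.07 in hGR caps, close to the array median of -0.06, so it is not counted as opposite. The differences were 1.25, -1.22, -1.25 and 2.00 for Brat, mef2a-prov, MGC52572 and LOC496378 in that order.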

How the results depend on the processing

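The ratios of LOC397758, MGC52596 and myogU2-A on both arrays, and of XMyf-5 on the active EBF3 array, kept their direction under the alternatives run here. Without dye normalization or centring, those of MGC52596 (-0.08) and myogU2-A (-0.46) in hGR caps turned. Of 71 alternative values 35 moved by less than the Cy5 SD of 0.17 (log2) or, for counts, by less than 1.5 times. Of these 35, 8 came from the deposited log ratio and 8 from the series table. Both of those hold the same processed signals, so their agreement was given in advance. With normexp and loess the log2 ratios in active EBF3 caps were 5.69 for LOC397758, 5.47 for MGC52596 and 1.87 for XMyf-5, and in hGR caps 0.30 for LOC397758 and 0.17 for MGC52596. With median centring they were 6.56 and 5.58 for LOC397758 and MGC52596 in active EBF3 caps, and 0.14 for myogU2-A in hGR caps. With the hGR array's Cy5 signal, chosen after seeing the data, they were 7.95, 8.99 and 5.46 for LOC397758, MGC52596 and XMyf-5, the last against a dim spot. The deposited log ratio and the series table gave the same ratios for the probes above background.

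Gene probes past 2-fold numbered 882 on the active EBF3 array (450 higher, 432 lower), against 526 with both channels well above background, 380 with normexp and 2771 with median centring (1889 higher, 882 lower). On the hGR array 1087 (217 higher, 870 lower) became 443 with 1 or more channels well above background, 240 with both, 101 with normexp and 3499 with centring (2826 higher, 673 lower). Muscle structure probes past 2-fold in active EBF3 caps numbered 3, against 1 with both channels well above background, 1 with normexp and 6 at 1.5-fold. In hGR caps they numbered 2, against 1 with 1 or more channels well above background, 0 with both, 0 with normexp, 4 with centring and 7 at 1.5-fold. No count over all gene probes was made at 1.5-fold, so nothing is read from the counts of 6 and 7. The muscle median was 0.21 with centring on the active EBF3 array, and 0.012 with normexp and 0.18 with centring on the hGR array, where its sign turned. The cause was not tested. No paired analysis was possible because each comparison had 1 array and came from no test, and no replicate could be left out. Signal over background limits the other end: myogU1-A and, in hGR caps, XMyf-5 changed sign between settings and carry no direction. The small hGR ratios of MGC52596 and myogU2-A turned only without dye normalization or centring, and no direction is read from them.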

Other observations

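A pair of mesodermal probes outside the lists was looked up after the values were seen. Stripy, described as ledgerline, a gene of the presomitic mesoderm from which muscle forms, had 2567 in active EBF3 caps, against 133 in untreated caps, where it was not well above background, and was at least 12.5-fold higher. On the hGR array neither of its signals was well above background. The mesendodermal homeobox probe bix3-A was 19.6-fold higher in active EBF3 caps and at least 1.85-fold higher in hGR caps. The Mix homeobox and presomitic bHLH probes in the lists lay within 2-fold in active EBF3 caps. Mix.1 was 1.78-fold higher, LOC398035 (mixer.L) 1.20-fold higher and Mespo 1.13-fold lower there. The mix.2-A probe and the other presomitic bHLH probes had neither signal well above background on that array.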
